A study of Mus musculus with 38 samples.

Results

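*Rgs5* encodes a regulator of G protein signaling, and it is widely used as a transcript of pericytes and vascular smooth muscle cells. The values of this 1 gene were followed over all 38 segments of 23 regions of interest (ROIs) of mouse liver. It is 1 of the 10547 genes measured, which here means kept after the authors' filter on low signal. *Rgs5* was chosen by its values in PanCK+ segments of WT mice, where it had a large difference between the DDC and the control diet, so that this contrast is given as a description with no test. The cell source of *Rgs5* in these segments was not tested. In PanCK+ segments of DDC-fed WT mice, the 9 other pericyte genes measured had 1 to 8 counts each. Those of DDC-fed *Trail* Δmye mice were deeper (172180 to 836971 total counts against 46675 to 61665), so that their counts are not comparable. Scaled for depth (Q3-normalized), the 9 genes there summed to 61.8 to 94.1, and *Rgs5* alone was 39.4 to 164. In PanCK+ segments of *Trail* Δmye mice, 1 of these 9 was called higher on the DDC diet, where 1.43% of all genes were. This count is too small to be read against that share.

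The livers came from C57BL/6 mice that were 6 to 8 weeks old when cholestatic injury was induced. The mice were either WT or *Trail* Δmye, in which Cre expressed from the *Lyz2* locus deletes a floxed *Trail* allele in myeloid cells. The WT mice carry neither the floxed allele nor Cre, so that allele, Cre and deletion cannot be told apart. Mice were fed rounds of 5 days with a control diet or with DDC (diethoxycarbonyl-dihydrocollidine, a porphyrinogenic compound that injures bile ducts), with 3 days of chow between rounds, for 21 days in all, and were euthanized on day 22. GeoMx profiling releases barcoded probes by light from chosen areas of a tissue section. PanCK+ segments (a pan-cytokeratin stain of bile duct epithelium) and IBA1+ segments (a macrophage stain) were collected from periportal ROIs, and IBA1+ segments from parenchymal ROIs. The PanCK+ segments numbered 3 in control diet-fed and 4 in DDC-fed WT mice, and 4 and 5 in *Trail* Δmye mice. In the same order there were 2, 4, 4 and 5 periportal and 1, 2, 2 and 2 parenchymal IBA1+ segments. No label used here names the animal behind a segment. Segments can therefore share an animal, and every p-value below is over segments and too small to stand for animals.

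RGS proteins speed up the hydrolysis of GTP by activated G protein alpha subunits and so shorten the signal of the receptors that activate them. RGS5 belongs to the R4 subfamily of small RGS proteins and acts on the Gi and Gq classes of alpha subunits, downstream of receptors such as those for endothelin, angiotensin and sphingosine-1-phosphate. Its amino terminus makes the protein short-lived through the oxygen-sensitive N-degron pathway. Pericytes wrap capillaries, and in the liver the hepatic stellate cell is the pericyte-like cell of the sinusoid.

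*Rgs5* (NCBI Gene 19737) lies on the plus strand of chromosome 1 at chr1:169655501-169695813 of GRCm38.p6, a span of 40313 bases. The 250 bases before the RefSeq start, chr1:169655251-169655500, are shown 5′ to 3′ because they are the promoter-proximal sequence of the gene whose level differed between segments. The capitals mark the matches to the motifs searched on both strands.

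*Rgs5* promoter: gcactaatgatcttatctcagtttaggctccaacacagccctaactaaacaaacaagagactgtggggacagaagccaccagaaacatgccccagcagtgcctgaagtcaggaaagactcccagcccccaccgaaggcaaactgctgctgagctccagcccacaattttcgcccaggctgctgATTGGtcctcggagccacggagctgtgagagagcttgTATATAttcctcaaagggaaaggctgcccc

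The window held CCAAT once, on the minus strand (read here as ATTGG) with its leftmost base 67 bases before the start, and 33.8% of 32851 mouse promoter windows of the same length held this motif. It held TATATA once, 30 bases before the start, as did 5.25% of the windows. The window held no TATAAA, which 12.4% of all windows held. It had no GGGCGG either (32.7% of windows). The E-box CANNTG (66.2%) and the CArG box (1.47%) had no match. These are matches of letters and were not tied to any measurement.

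The lowest value recorded is 1 count per gene and segment, and *Rgs5* was at this floor in 6 of the 38 segments. Total counts ran from 20319 to 836971 per segment. Both segments of ROI 035, of a DDC-fed *Trail* Δmye liver, stood apart, with totals of 836971 (PanCK+) and 568720 (IBA1+), and the contrasts of *Rgs5* that use them are given with and without them, as are the list counts that moved without them. The segment classes carried their defining markers. The summed Q3-normalized level of 10 cholangiocyte markers was 554 to 2240 in PanCK+ and 46.4 to 399 in IBA1+ segments, and that of 12 macrophage markers was 63.0 to 172 in PanCK+ and 362 to 1276 in IBA1+ segments. A Q3-normalized count is the count scaled so that the 75th percentile over genes is equal in all segments.

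In PanCK+ segments of control diet-fed WT mice, *Rgs5* had 1, 1 and 1 count (ROIs 001, 003 and 005), or Q3-normalized counts of 3.50, 5.25 and 5.25. In DDC-fed WT mice it had 66, 86, 81 and 121 counts (ROIs 007, 009, 011 and 013), or Q3-normalized counts of 163, 181, 213 and 254. All 4 DDC segments lay far above all 3 control segments, and no control segment rose above the floor. Against a floor of 3 counts per segment, the mean of the DDC-fed group (203 ± 40.0, SD, n = 4) was at least 14.5-fold higher, a bound that covers counting error only. The count was 59.8 to 97.2 times that of the negative probe (a probe with no target) in the DDC segments and 0.939 to 0.997 times in the control segments. In this contrast, which singled out the gene, 0.493% of all genes were called higher and 0.417% lower. In these segments, more cells that express *Rgs5* and more *Rgs5* RNA per cell cannot be told apart.

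*Rgs5* rose with the DDC diet in PanCK+ segments of *Trail* Δmye mice as well, a contrast that did not choose the gene. The control segments had 2, 3, 4 and 11 counts (ROIs 026 to 029), or Q3-normalized counts of 7.00, 7.88, 10.5 and 23.1. The DDC segments had 316, 152, 358, 300 and 316 counts (ROIs 032 to 036), or Q3-normalized counts of 128, 106, 164, 39.4 and 133. All 5 DDC segments exceeded all 4 control segments, and the lowest DDC value, in ROI 035, was above the highest control value. The mean Q3-normalized count was 114 ± 46.4 (SD, n = 5) against 12.1 ± 7.47 (SD, n = 4), a 9.40-fold difference. The fit gave a log2 fold change of 3.13 (standard error 0.42, 95% confidence interval 2.30 to 3.96, adjusted p = 2.98e-08 in edgeR's quasi-likelihood test), with a median of 0.18 over all genes. It takes its spread from all PanCK+ segments, the WT segments that chose the gene included, so that its p-value is not independent of them. Of 8 alternative fits, that on the compared groups alone among them, 7 kept the call. In this contrast 1.43% of all genes were called higher and 0.664% lower. An exact permutation test over the segments gave p = 0.0159, the smallest that 126 assignments allow.

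Depth moved with this contrast. Totals were 35079 to 54834 in the control and 172180 to 836971 in the DDC segments of *Trail* Δmye mice, whereas they were 23482 to 29510 and 46675 to 61665 in WT mice. As counts per 100000, the *Trail* Δmye difference was 8.25-fold. With all PanCK+ segments thinned to the smallest total, the log2 fold change was 2.45 and the call was lost (adjusted p = 0.170 in edgeR), while the genes called in the contrast went from 221 to 11. Without ROI 035, where *Rgs5* was 6.96 times the negative probe against 49.2 to 117 times in the other 4 DDC segments, the log2 fold change was 3.34 (adjusted p = 5.83e-13 in edgeR) and the DDC-fed mean 133 ± 23.5 (SD, n = 4).

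**Figure D1:**
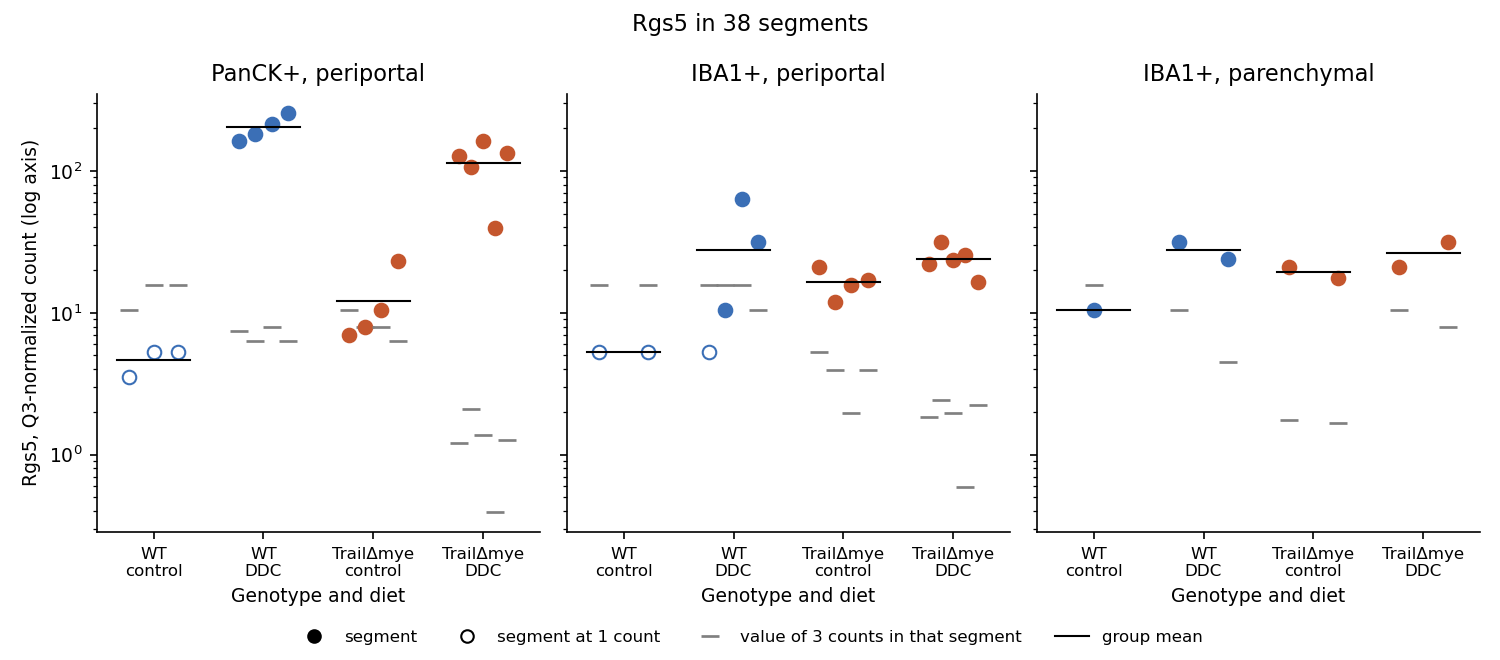
*Rgs5* in each of 38 segments, by segment class (panels), genotype and diet (x axis), as Q3-normalized count on a log axis. Open circles are segments at 1 count, grey bars mark what 3 counts are worth in that segment, and black lines are group means. The 9 PanCK+ segments of DDC-fed mice sit between 39.4 and 254, and all other segments lie below 39.4 except 1 IBA1+ segment at 63.0.

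Between genotypes, PanCK+ segments were compared by description only, since the contrasts use the WT segments that chose the gene. On the DDC diet the mean in *Trail* Δmye mice was 0.562 times that in WT mice. The ranges overlapped only at their edge, with 1 *Trail* Δmye segment (164, ROI 034) just above the lowest WT segment (163, ROI 007). On the control diet, all 4 *Trail* Δmye segments had more than 1 count and all 3 WT segments were at the floor, and the *Trail* Δmye mean of 12.1 was no higher than the value of 3 counts in some of the WT segments (10.5 to 15.8).

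In periportal IBA1+ segments *Rgs5* was low in every group. Control diet-fed WT mice had 1 and 1 count (ROIs 003 and 005), each a Q3-normalized count of 5.25. DDC-fed WT mice had 1, 2, 12 and 9 counts (ROIs 007, 009, 011 and 013), or Q3-normalized counts of 5.25, 10.5, 63.0 and 31.5. The 4 DDC values spread from the floor to the highest value of any IBA1+ segment. Their mean was at least 1.75-fold above 3 counts, and the fit did not call the difference (adjusted p = 0.363 in edgeR, with 1.19% of all genes called in either direction). Setting counts of 1 to 0 brought the call (adjusted p = 0.0317), and the exact permutation test gave p = 0.4, where 0.133 is the smallest possible with 15 assignments.

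Control diet-fed *Trail* Δmye mice had 12, 9, 24 and 13 counts in periportal IBA1+ segments (ROIs 026 to 029), or Q3-normalized counts of 21.0, 11.8, 15.8 and 17.1. DDC-fed *Trail* Δmye mice had 36, 39, 36, 128 and 22 counts (ROIs 032 to 036), or Q3-normalized counts of 22.2, 31.5, 23.6, 25.4 and 16.5. Of the 5 DDC segments, 4 were above all control segments and 1 lay among them. The log2 fold change was 0.56 (standard error 0.29, 95% confidence interval -0.03 to 1.15, adjusted p = 0.264 in edgeR), where 4.2% of all genes were called higher and 5.18% lower. The call depended on the test, since edgeR's filter on low counts gave 0.70 (adjusted p = 0.0469) and the exact permutation test p = 0.0476. The summed level of the 10 cholangiocyte markers in these IBA1+ segments was 48.6 to 64.8 on the control and 117 to 240 on the DDC diet, and its part in the *Rgs5* values was not tested.

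The genotypes were not called different in periportal IBA1+ segments. On the DDC diet the log2 fold change of *Trail* Δmye against WT was -0.22 (95% confidence interval -0.98 to 0.53, adjusted p = 1 in edgeR, 0.019% of all genes called), and its sign turned without the WT segment of ROI 011 (0.43). On the control diet the WT segments were at the floor, and the difference was not called (adjusted p = 1 in edgeR, 0.199% called). The difference of the diet contrasts between genotypes was -1.82 (95% confidence interval -3.82 to 0.18, adjusted p = 1 in edgeR, 0.0569% called).

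Parenchymal IBA1+ segments had 2 counts in the control diet-fed WT mouse liver (ROI 004) and 9 and 16 in DDC-fed WT mice (ROIs 010 and 012), or Q3-normalized counts of 10.5, 31.5 and 24.0. In *Trail* Δmye mice they had 36 and 32 counts on the control diet (ROIs 030 and 031) and 6 and 12 on the DDC diet (ROIs 037 and 038), or Q3-normalized counts of 21.0, 17.7, 21.0 and 31.5. All 7 values lay within the range of the periportal IBA1+ segments. With genotype as a term, the diet contrast was 0.61 (95% confidence interval -0.17 to 1.40, adjusted p = 0.920 in edgeR, 0.759% of all genes called). The exact permutation test, which pooled the genotypes (35 assignments) and so took no account of genotype, gave p = 0.114. On the DDC diet, periportal against parenchymal IBA1+ segments gave -0.05 (95% confidence interval -0.69 to 0.59, adjusted p = 0.989 in edgeR, 3.24% called).

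Ordered by their mean, the 12 groups began with PanCK+ segments of DDC-fed WT (203) and DDC-fed *Trail* Δmye mice (114), whose ranges overlapped. The next group in the order did not overlap with them, although 1 periportal IBA1+ segment of a DDC-fed WT mouse (63.0) exceeded the lowest *Trail* Δmye value (39.4). The 4 IBA1+ groups of DDC-fed mice had means of 23.9 to 27.8, the *Trail* Δmye control groups 12.1 to 19.3, and the WT control groups 4.67 to 10.5. Further down each group overlapped in range with the next, except the 1 parenchymal control segment of WT mice (10.5) and the IBA1+ periportal controls below it (5.25).

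Within an ROI, both segments come from the same piece of tissue. In the 5 ROIs of *Trail* Δmye mice on the DDC diet, the PanCK+ segment had 5.74, 3.38, 6.92, 1.55 and 8.04 times the Q3-normalized *Rgs5* count of its IBA1+ segment (ROIs 032 to 036). It was higher in 5 of 5 ROIs, least so in ROI 035. With ROI as a block the log2 fold change was 2.03 (standard error 0.21, 95% confidence interval 1.62 to 2.45, adjusted p = 1.21e-12 in edgeR), with 7.65% of all genes higher and 7.96% lower by the same rule. Without ROI 035 it was 2.50 (adjusted p = 5.54e-15 in edgeR), and with all segments thinned to the smallest total it was 1.72 and not called (adjusted p = 0.648).

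In control diet-fed *Trail* Δmye mice the PanCK+ segment had 0.333, 0.667, 0.667 and 1.35 times the level of its IBA1+ segment (ROIs 026 to 029). It was higher in 1 of 4 ROIs, and the log2 fold change of -0.35 was not called (95% confidence interval -1.35 to 0.64, adjusted p = 0.865 in edgeR, 4.77% of all genes called). In WT mice, given as a description, the PanCK+ segment was higher in 4 of 4 ROIs on the DDC diet, by 3.38 to 31.1 times, and both segments were at 1 count in the 2 control ROIs.

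The diet contrast of *Trail* Δmye mice was larger in PanCK+ than in IBA1+ segments of the same ROIs. This difference, a comparison added after the values were seen, was 2.39 on the log2 scale (standard error 0.52, 95% confidence interval 1.34 to 3.43, adjusted p = 0.00825 in edgeR), where 0.996% of all genes were called higher and 0.265% lower. It was 2.86 without ROI 035 (adjusted p = 0.000257 in edgeR). The call was lost without ROI 028 (2.30, adjusted p = 0.0769) and with thinned counts (0.84, adjusted p = 0.985).

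**Figure D2:**
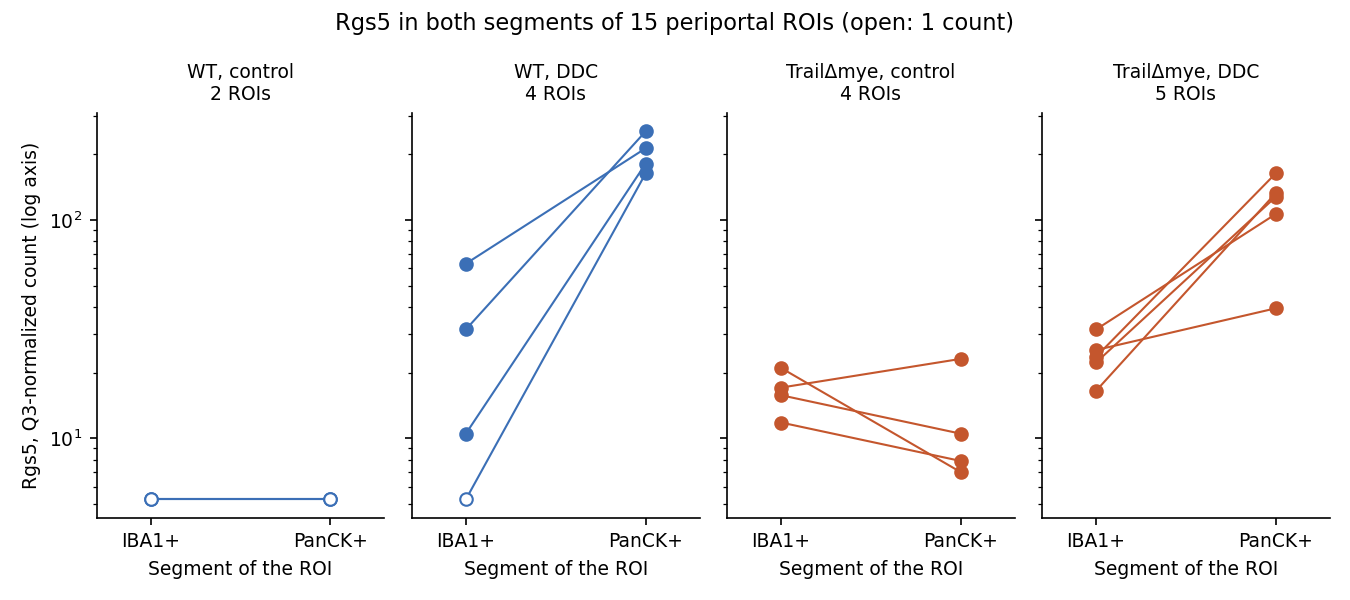
*Rgs5* in the IBA1+ and the PanCK+ segment of 15 periportal ROIs, as Q3-normalized count on a log axis, 1 line per ROI and 1 panel per genotype and diet. Open circles are segments at 1 count. Every line rises toward the PanCK+ segment in the 9 ROIs of DDC-fed mice, and 1 of 6 does so in the ROIs of control diet-fed mice, where the 2 WT lines are flat at the floor and coincide.

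**Figure D3:**
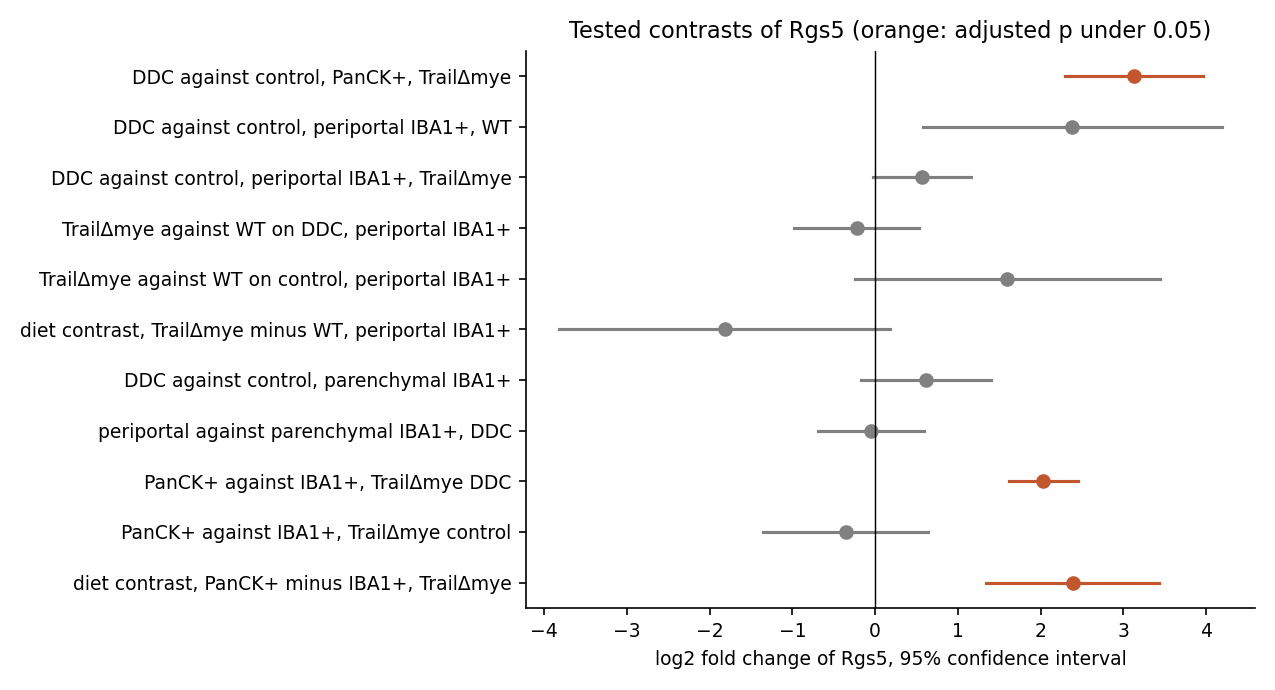
Log2 fold change of *Rgs5* in 11 tested contrasts with 95% confidence intervals from edgeR, orange where the adjusted p is under 0.05. The 3 called contrasts are the diet contrast in PanCK+ segments of *Trail* Δmye mice (3.13), PanCK+ against IBA1+ segments on the DDC diet (2.03) and the difference of the diet contrasts between the segment classes (2.39).

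The other pericyte genes were read in the same contrasts. Of 14 listed pericyte genes 10 were among the genes measured, *Rgs5* included. The other 4 (*Cspg4*, *Higd1b*, *Ndufa4l2* and *Cox4i2*) were not analysed here and may have been dropped for low signal. In PanCK+ segments of *Trail* Δmye mice, 1 of the 9 pericyte genes other than *Rgs5* was called higher on the DDC diet and 0 lower (1.43% and 0.664% of all genes), with a median log2 fold change of -0.21 against 0.18 over all genes. A count of 1 in 9 is too small to be read against that share. The counts were the same without ROI 035. In PanCK+ segments of DDC-fed WT mice, *Pdgfrb*, the receptor that recruits pericytes to vessels, had 1 to 3 counts, and *Notch3*, the Notch receptor of mural cells, had 1 to 2. *Kcnj8* and *Abcc9*, the subunits of the mural potassium channel, had 1 to 2 and 1 to 5 counts in those 4 segments, and *Des* (desmin) had 2 to 5. The same segments held 66 to 121 counts of *Rgs5*.

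The gene called higher was *Mcam* (CD146), an adhesion molecule of endothelium and pericytes that some epithelia also carry. Its Q3-normalized count in PanCK+ segments of *Trail* Δmye mice was 2.63 to 4.20 on the control and 5.66 to 21.8 on the DDC diet, with no overlap (log2 fold change 1.91, adjusted p = 0.0277 in edgeR). *Pdgfrb* had a mean of 4.95 ± 2.55 (SD, n = 4) on the control and 4.16 ± 2.01 (SD, n = 5) on the DDC diet there (log2 fold change -0.21, 95% confidence interval -1.20 to 0.77). The summed level of the 9 pericyte genes was 55.1 to 102 in control and 61.8 to 94.1 in DDC segments of *Trail* Δmye mice, and 78.8 to 110 and 58.8 to 69.2 in WT mice. The list includes *Vtn*, which hepatocytes also make in large amounts, and the summed level of 10 hepatocyte genes was 2981 to 7738 in control and 984 to 3404 in DDC segments of *Trail* Δmye mice, and 3015 to 4716 and 1634 to 2914 in WT mice. Its part in the pericyte sum was not tested. Without *Vtn*, an alternative added after the values were seen, the sum of the other 8 was 39.4 to 52.5 and 34.7 to 59.6 in *Trail* Δmye mice, and 42.0 to 78.8 and 49.9 to 52.5 in WT mice, so that control and DDC ranges overlapped in both genotypes. In *Trail* Δmye mice, a gene at 1 count adds 2.10 to 3.50 in control and 0.131 to 0.700 in DDC segments. In WT mice it adds 3.50 to 5.25 and 2.10 to 2.63. The floor thus weighs more in control segments, so that these sums and the *Pdgfrb* means cannot show whether pericyte RNA differed.

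Several of these genes were higher in IBA1+ segments. In *Trail* Δmye ROIs on the DDC diet, *Pdgfrb* (log2 fold change -1.73), *Abcc9* (-0.99), *Anpep* (-0.89), which encodes aminopeptidase N, and *Cd248* (-0.67), which encodes endosialin, were lower in PanCK+ than in IBA1+ segments, and *Mcam* (0.87) was higher. That is 1 of 9 higher and 4 of 9 lower (7.65% and 7.96% of all genes), with a median of -0.60 against 0.01 over all genes, opposite in sign to *Rgs5* (2.03). Without ROI 035, 5 of 9 were lower (*Pdgfrb*, *Abcc9*, *Kcnj8*, *Notch3* and *Anpep*). On the DDC diet *Pdgfrb* rose in periportal IBA1+ segments of *Trail* Δmye mice, from Q3-normalized counts of 1.75 to 6.57 to counts of 12.1 to 18.0 (log2 fold change 1.98, adjusted p = 2.43e-06 in edgeR), as did *Cd248* (1.12), while *Vtn*, encoding vitronectin, fell (-1.27). That is 2 of 9 higher and 1 of 9 lower, beside 4.2% and 5.18% of all genes.

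Smooth muscle genes were counted next. Of 12 listed genes 9 were measured, and 1 of 9 was called higher and 0 lower on the DDC diet in PanCK+ segments of *Trail* Δmye mice (1.43% and 0.664% of all genes), with a median of -0.06 against 0.18 over all genes. It was *Flna*, encoding the actin cross-linker filamin A of many cell types (log2 fold change 2.24, adjusted p = 0.000124 in edgeR), with Q3-normalized counts of 5.25 to 15.8 on the control and 28.6 to 67.6 on the DDC diet. *Acta2*, smooth muscle actin, was at a log2 fold change of -0.18 (95% confidence interval -1.14 to 0.79) and *Myh11*, smooth muscle myosin, had 1 to 3 counts in PanCK+ segments of DDC-fed WT mice. In *Trail* Δmye ROIs on the DDC diet, *Acta2* (-0.98), *Tagln* (-0.86) and *Mylk* (-0.50), which encode contractile proteins and their kinase, were lower in PanCK+ than in IBA1+ segments, and 0 of 9 were higher (7.96% and 7.65% of all genes). Without ROI 035 the call of *Mylk* was lost and 2 of 9 were lower.

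**Figure D4:**
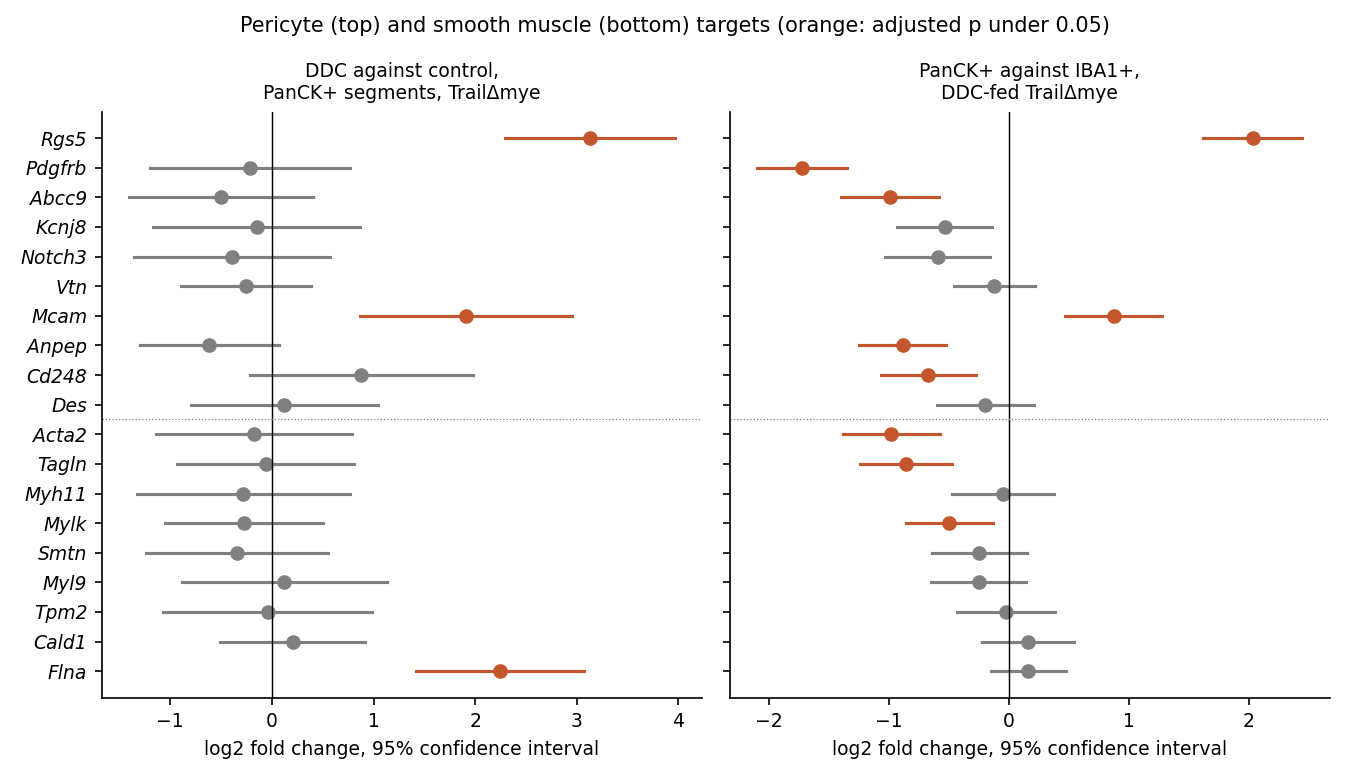
Log2 fold changes with 95% confidence intervals from edgeR for the 10 pericyte genes (above the dotted line, *Rgs5* first) and 9 smooth muscle genes measured, for the diet contrast in PanCK+ segments of *Trail* Δmye mice (left) and for PanCK+ against IBA1+ segments of DDC-fed *Trail* Δmye mice (right), orange where the adjusted p is under 0.05. *Rgs5*, *Mcam* and *Flna* are called on the left, and on the right 7 genes are called lower while *Rgs5* and *Mcam* are called higher.

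Lists for other cells that PanCK+ segments could hold were counted in the same way. In the diet contrast of *Trail* Δmye PanCK+ segments, 0 of 11 portal fibroblast genes and 0 of 11 endothelial genes were called in either direction, which is near the share over all genes (1.43% higher and 0.664% lower). Of 10 collagen and matrix genes 3 were higher (*Col1a1*, *Col1a2* and *Sparc*), of 10 cholangiocyte genes 3 (*Epcam*, *Cldn3* and *Cldn4*), and of 12 macrophage genes 2 (*C1qb* and *C1qc*). Without ROI 035, *Col3a1* and *Spp1* were called as well, for 4 matrix and 4 cholangiocyte genes. The summed matrix level was 109 to 176 in control and 204 to 452 in DDC segments, and the summed macrophage level 63.0 to 121 and 117 to 172. Their part in the *Rgs5* values was not tested. In *Trail* Δmye ROIs on the DDC diet, 10 of 10 matrix genes and 9 of 12 macrophage genes were lower in PanCK+ than in IBA1+ segments, and 10 of 10 cholangiocyte genes were higher, beside 7.96% of all genes lower and 7.65% higher. Without ROI 035, 10 of 12 macrophage genes were lower.

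Of 21 listed RGS genes 11 were measured, that is, kept after the authors' filter on low signal. None of the 10 other than *Rgs5* was called higher in the diet contrast of *Trail* Δmye mice, in PanCK+ or in periportal IBA1+ segments, where 1.43% and 4.2% of all genes were. *Rgs16*, another R4 member, fell in both, by 1.54 on the log2 scale in PanCK+ segments (adjusted p = 0.00179 in edgeR) and by 2.35 in IBA1+ segments (adjusted p = 2.06e-09 in edgeR). It was the only 1 of the 10 called lower, beside 0.664% and 5.18% of all genes. Its Q3-normalized count went from 7.88 to 25.2 on the control diet to 3.36 to 9.98 on the DDC diet in PanCK+ segments. *Rgs4*, also of the R4 subfamily, had 1 count in all 4 PanCK+ segments of DDC-fed WT mice and a log2 fold change of -0.14 in *Trail* Δmye mice. In *Trail* Δmye ROIs on the DDC diet, *Rgs2* (-0.55), *Rgs10* (-1.16) and *Rgs19* (-0.60) were lower in PanCK+ than in IBA1+ segments, and 0 of 10 were higher. Of all genes, 7.96% were lower and 7.65% higher there, so that 0 of 10 is near the share.

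Genes that act with RGS5 were counted in the same contrasts, beside the 1.43% (higher) and 0.664% (lower) of all genes called with the diet in PanCK+ segments of *Trail* Δmye mice. Among 8 measured receptors and ligands of its pathway, 0 were called in the diet contrast of *Trail* Δmye mice, and 1 was lower without ROI 035 (*S1pr1*, a sphingosine-1-phosphate receptor). Among 8 G protein alpha subunits and phospholipases, *Gnai2*, an alpha subunit of the Gi class, was higher (log2 fold change 1.58, adjusted p = 0.00849 in edgeR). In periportal IBA1+ segments of *Trail* Δmye mice the endothelin receptor *Ednrb* (0.85), the alpha subunit *Gna13* (1.43) and the phospholipase *Plcb3* rose with the DDC diet, and without ROI 035 the calls were *Gna13* and *Gnai2*. With all segments, 1 of 8 receptors and ligands and 2 of 8 subunits and phospholipases were higher and 0 lower, beside 4.2% and 5.18% of all genes. Between segments of DDC-fed *Trail* Δmye ROIs, *Ednra* (-0.64), *Ednrb* (-0.91) and *Gna12* (-0.70) were lower in PanCK+ segments, as was *S1pr3*, another sphingosine-1-phosphate receptor, without ROI 035. With all ROIs, 2 of 8 and 1 of 8 in these lists were lower and 0 higher, beside 7.96% and 7.65% of all genes.

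All 6 listed genes of the N-degron pathway were measured, and 0 were called in the diet contrast of PanCK+ segments of *Trail* Δmye mice, near the share over all genes (1.43% higher and 0.664% lower). *Ado*, the dioxygenase that oxidizes the RGS5 amino terminus, had a log2 fold change of 0.75 (95% confidence interval -0.23 to 1.73, adjusted p = 0.630 in edgeR). Between segments of DDC-fed *Trail* Δmye ROIs, *Metap2* (0.60, adjusted p = 0.0111 in edgeR) was higher in PanCK+ segments, with and without ROI 035. That is 1 of 6 higher and 0 lower (7.65% and 7.96% of all genes), too few to be read against these shares. Of 8 measured genes of pericyte recruitment 0 were called in the diet contrast of these PanCK+ segments as well. In *Trail* Δmye ROIs on the DDC diet, *Pdgfb* (1.06), the ligand of PDGFRB, and *Jag1* (1.31), a Notch ligand, were higher in PanCK+ segments, and the receptors *Pdgfrb* (-1.73) and *Pdgfra* (-1.38) and the cytokine *Tgfb1* (-1.21) were lower. That is 2 of 8 higher and 3 of 8 lower, beside 7.65% and 7.96% of all genes. Without ROI 035 *Notch3* was lower too.

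In PanCK+ segments of WT mice, the contrast that chose *Rgs5*, 0 of 9 pericyte, 0 of 9 smooth muscle and 0 of 10 other RGS genes were called in either direction (0.493% of all genes higher and 0.417% lower). In the difference of the diet contrasts between PanCK+ and IBA1+ segments, likewise 0 of 9, 0 of 9 and 0 of 10 were called (0.996% and 0.265% of all genes), counts near these shares. *Pdgfrb* had a difference of -2.09 there (adjusted p = 0.144 in edgeR) and *Mcam* one of 1.90 (adjusted p = 0.127), beside 2.39 for *Rgs5*.

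The genes whose levels over the 38 segments were most like those of *Rgs5* were sought among the 3089 genes with a mean count of at least 10, by Pearson's r of log2(Q3-normalized count + 10). They were *Lcn2* (r = 0.872), encoding lipocalin 2, *Cd14* (0.863), a lipopolysaccharide co-receptor, *Mmp7* (0.845), a metalloproteinase, *Cd44* (0.828), a hyaluronan receptor, and *Tspan8* (0.820), a tetraspanin. *D17H6S56E-5* (0.814), the chemokine *Ccl2* (0.813), the phospholipid scramblase *Plscr1* (0.806), the integrin subunit *Itgav* (0.805) and the surfactant protein gene *Sftpd* (0.803) followed. None of the 10 is on the lists above. That absence cannot be read for genes below the mean count, which could not enter. Among them were *Pdgfrb*, *Notch3*, *Mcam*, *Acta2*, *Tagln* and *Myh11*. *Lcn2* had mean Q3-normalized counts of 8.17 and 241 in PanCK+ segments of control diet-fed and DDC-fed WT mice, and 15.8 and 183 in *Trail* Δmye mice. *Mmp7* had 4.67 and 127, and 13.1 and 105. The segments fall into groups by class and diet and differ in depth between genotypes and diets, so that r is a description over these groups. Taken over deviations from the group means, 0 of these 10 genes remained among the first 10, and r for *Lcn2* was 0.398.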

How the data were processed

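The deposited expected counts, 1 per target and segment, were made by the authors from GeoMx mouse Whole Transcriptome Atlas probes after 18 cycles of PCR, with bcl2fastq and mm10 named in the submitters' processing notes. The signal values, Q3-normalized by the authors, were checked to be the counts times 1 factor per segment (75th percentile 10.5). Of all count values 27.2% were at the lowest value of 1. The paper states that genes of low signal relative to background were filtered out. Listed genes that are absent may therefore have been dropped for low signal, and the shares over all genes are over the kept genes.

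Counts (3 genes with values that were not whole were rounded) were fitted in R 4.3.3 by edgeR 4.0.16 (its quasi-likelihood test, upper-quartile factors at the 75th percentile, a coefficient per group, no further filter) over 10547 genes, where a call is an adjusted p (Benjamini-Hochberg) under 0.05. PanCK+ and IBA1+ segments were compared with ROI as a block, since the ROI number in the labels marks the same tissue. All groups of a fit share its estimate of the spread, so that the fits with PanCK+ segments draw on the WT segments that chose *Rgs5*. The correlation of the deviations of an ROI's segments was -0.02 to 0.55, and over 0.1 only in the 5 *Trail* Δmye ROIs on the DDC diet. All tests are two-sided. Exact permutation tests enumerated all assignments of segments on log2(Q3-normalized count + 1). Bounds use 3 counts per segment and cover counting error only. The fits were tested on simulated data. Alternatives were TMM factors, DESeq2 1.42.0, limma 3.58.1 with pseudocounts of 1 and 0.5, edgeR's filterByExpr, counts of 1 set to 0, thinned counts, the compared groups alone, no ROI block, and each segment or ROI left out in turn.

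*Rgs5*, the gene lists and the tests were chosen with earlier results of these data known. The genes named are *Rgs5*, the called members of the pericyte, smooth muscle, RGS, G protein, N-degron and pericyte recruitment lists, members near the floor, defining markers of the segments, and the 10 genes with the highest r with *Rgs5*. *Rgs4*, *Ado*, *S1pr1*, *S1pr3* and the called members of the other lists were named after their values were seen. Promoter sequence and coordinates are from RefSeq on GRCm38.p6, the mm10 assembly.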

Additional observations from a re-analysis of the deposited data

Results flagged for a closer look

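The diet contrast of *Rgs5* in *Trail* Δmye mice differed between segment classes of the same ROIs, by 2.39 on the log2 scale (PanCK+ minus IBA1+, adjusted p = 0.00825 in edgeR's quasi-likelihood test, with ROI as a block). It stands out because the effect of the same diet differed between segment classes in a test of the difference itself. Depth differed between the 4 groups compared, with median totals of 37490 and 291784 in PanCK+ and of 101994 and 189209 in IBA1+ segments (control and DDC diet), and its part in the result was not tested beyond the thinned fit, in which the difference was 0.84 (adjusted p = 0.985). In the 6 groups of 4 or 5 segments, no Q3-normalized *Rgs5* count passed Dixon's criterion for a value far from the others. Among unscaled *Rgs5* counts 2 did, the low 152 of ROI 033 among DDC-fed *Trail* Δmye PanCK+ segments and the 128 of ROI 035 among the IBA1+ segments of the same group. Among total counts, 4 high values did, all of *Trail* Δmye mice: 836971 (PanCK+) and 568720 (IBA1+) in ROI 035 on the DDC diet, and 54834 (PanCK+, ROI 029) and 220382 (IBA1+, ROI 028) on the control diet. Chance flags about 1 group in 20.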

How the results depend on the processing

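Of 269 values under alternatives, 247 kept their direction and their side of the threshold. With segments thinned to the smallest total, the PanCK+ diet contrast of *Trail* Δmye mice was 2.45 (adjusted p = 0.170 in edgeR), PanCK+ against IBA1+ on the DDC diet 1.72 (0.648), the same on the control diet 0.89, the difference between classes 0.84 (0.985) and the genotype contrast of IBA1+ segments on the control diet -0.28. Thinning discards most counts, and the PanCK+ contrast then had 11 calls in place of 221. Why the estimates and the calls moved was not tested. With counts of 1 set to 0, the IBA1+ diet contrast of WT mice was 7.80 (0.0317), a value with no bound. The IBA1+ diet contrast of *Trail* Δmye mice was 0.70 (0.0469) with filterByExpr and 0.51 in the exact permutation test (p = 0.0476). The genotype contrast of IBA1+ segments on the DDC diet turned to 0.31 (limma with a pseudocount of 1, and the permutation test's mean difference), 0.33 (pseudocount 0.5) and 0.43 (without ROI 011). Periportal against parenchymal segments turned to 0.019 with filterByExpr, and to 0.10, 0.07, 0.03 and 0.13 without ROIs 007, 009, 010 and 038. With 1 count kept as 1, the WT PanCK+ ratio was 43.4. The 10 genes most like *Rgs5* shared 6 with a pseudocount of 1, 2 with Spearman's rho and 0 over deviations from group means. The cause was not tested.

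Leaving out segments or ROIs in turn gave 2.96 to 3.71 for the PanCK+ diet contrast of *Trail* Δmye mice (16 of 16 called), 1.73 to 2.70 and 0.45 to 0.67 for the IBA1+ diet contrasts of WT and *Trail* Δmye mice (0 of 15 called in each), -0.53 to 0.43, 1.49 to 1.71 and -2.13 to -1.17 for the IBA1+ genotype contrasts on the DDC and the control diet and their interaction, 0.47 to 0.83 in parenchymal segments, -0.38 to 0.13 for periportal against parenchymal segments, 1.84 to 2.50 for PanCK+ against IBA1+ on the DDC diet (15 of 15 called), -0.86 to -0.11 on the control diet, and 2.14 to 2.88 for the difference between classes (14 of 15 called, the exception without ROI 028 at 2.30, adjusted p = 0.0769).

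Without the replicate block for the ROI, PanCK+ against IBA1+ was 2.24 on the DDC and -0.33 on the control diet and the difference between classes 2.57 (adjusted p = 0.0116 in edgeR), with no call changed. Diet and genotype contrasts share no ROI numbers between their groups, so that no paired analysis was possible for them.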
